A study of Mus musculus with 73 samples.

Results

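Annexins are a family of cytosolic proteins that bind membrane lipids when calcium rises. The account covers 8 of them, Anxa1, Anxa2, Anxa3, Anxa4, Anxa5, Anxa6, Anxa7 and Anxa11, chosen by name from the 55291 gene rows of 1 count table. The table holds 73 single cells picked by hand from the mouse cochlea at postnatal day 14 and labelled inner hair cells lacking Casz1, a zinc-finger transcription factor. The cells carried Atoh1Cre/+ and Casz1flox/flox, so that the Cre under Atoh1, which is active in young hair cells, deleted the floxed part of Casz1 and turned on the Rosa26-CAG-Loxp-stop-Loxp-3xGFP(Ai47) reporter. The Fgf8-Flpo/+ allele, driven by a gene of inner hair cells, switched on Rosa26-CAG-Frt-stop-Frt-tdTomato, and cells with both colours were taken. Because there is 1 group and no animal is named, the cells are treated as 1 sample without replicates. Wild-type cells were not analysed here, and no value below says what the loss of Casz1 changed.

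Each annexin has a conserved core of calcium-binding repeats and an N-terminal tail that differs between members. The core settles on phosphatidylserine and other acidic lipids, and the tail docks partners, among them small EF-hand calcium sensors of the S100 and penta-EF-hand families. Annexins are known for organising membrane domains, for vesicle traffic and for sealing torn plasma membrane. Annexin A5, the product of Anxa5, forms lattices on phosphatidylserine and is abundant in the stereocilia, the actin-filled projections with which hair cells sense sound.

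Each cell is 1 library, numbered as in the labels. Library totals ran from 11027945 to 37183702 counts (median 17333640). Levels are CPM, counts scaled to the library total, and a gene was called detected in a cell from 10 CPM upward (110 counts for the shallowest library, 372 for the deepest). Of 8 general hair cell markers, 7 were detected in all 73 cells, as were Slc17a8 and Otof, the vesicle glutamate transporter and the calcium sensor of inner hair cells. Casz1 itself was detected in 55 of 73 cells (median 42.1 CPM). The labels do not say which exons were removed, so its reads check nothing. Its rank correlation with Anxa5 was -0.12. In 26 cells, 1 or more of 49 markers of other cell types that are rare in these cells reached 50 CPM. Library 67 held the highest summed level of supporting cell markers (1309 CPM) and library 5 that of B cell markers (6539 CPM).

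One annexin accounted for nearly all of the family's transcripts. Anxa5 was detected in all 73 cells, Anxa6 in 38 and Anxa7 in 35, while Anxa2 was found in 6, Anxa4 in 3, Anxa11 in 1, and Anxa1 and Anxa3 in none. Of all gene rows, 8.87% were detected in at least 37 cells and 1.13% in all 73. Levels were compared between genes as CPM per kb of annotated exon. On that scale Anxa5 made up 96.64% of the mean summed over the 11 annexins annotated as protein-coding. Its mean per kb was 45.5 times that of Anxa6 and 130.5 times that of Anxa7. Before scaling by length, the mean was 1670 CPM for Anxa5, 60.5 CPM for Anxa6 and 43.1 CPM for Anxa7. The ratios depend on the length used, which sums all annotated exons (1777 bases for Anxa5, 2930 for Anxa6 and 5991 for Anxa7) and is not that of 1 transcript.

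**Figure D1:**
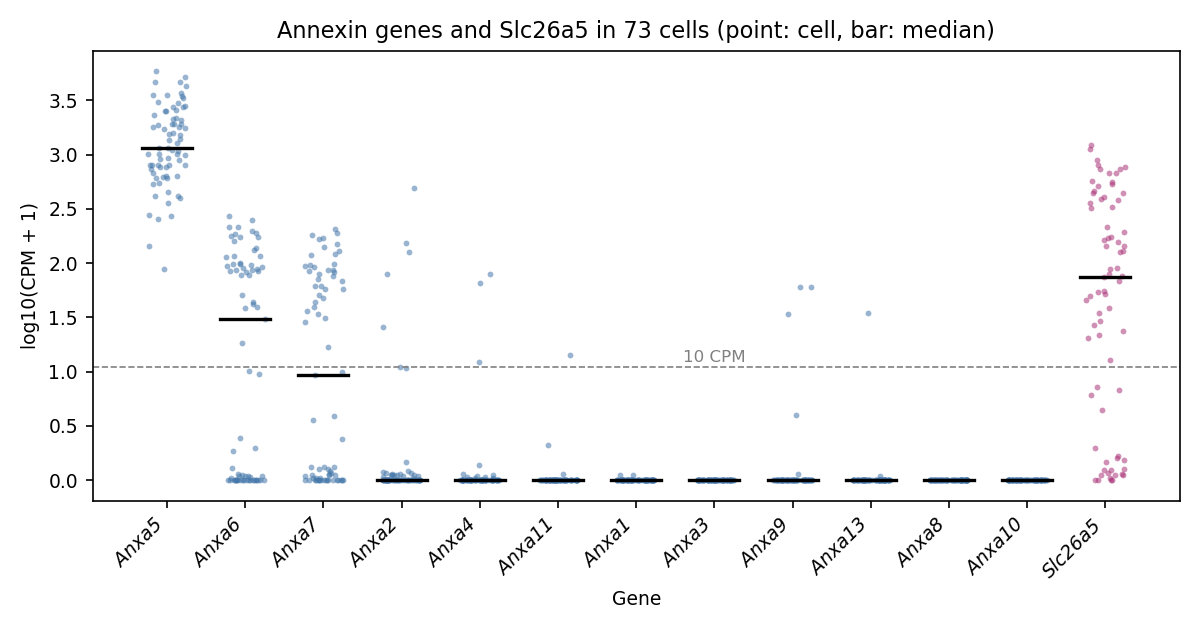
Level of each annexin and of Slc26a5 in every cell, as log10(CPM + 1) on the vertical axis, with 1 point per cell, a bar at the median and a dashed line at 10 CPM. Anxa5 lies above the line in all 73 cells, Anxa6 and Anxa7 split between cells near 0 and cells above the line, and the other annexins are at or near 0 in most cells.

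Anxa5 varied widely although every cell had it. Its level was lowest at 87.3 CPM in library 8, had a median of 1157 CPM and was highest at 5881 CPM in library 67, a range of 67.3-fold. Without library 8 the range was 40.8-fold. The lowest cell held 1239 Anxa5 counts, which include PCR copies and so do not give the number of molecules. The lower and upper quartiles were 741 and 2323 CPM. The coefficient of variation was 0.779, against a median of 0.333 and an upper quartile of 0.423 for the 43 genes whose mean lies within 1.5-fold of that of Anxa5. Anxa5 thus varied more between cells than most genes of its level.

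The cells at the extremes differed in other genes too. Library 8, lowest in Anxa5, had no Slc26a5 read and 2248 CPM of Atp2a3, an inner hair cell gene for a calcium pump. Library 10, the next lowest at 144 CPM of Anxa5, had 5.10 CPM of Slc26a5 and 1185 CPM of Atp2a3. At the other end, library 4 held 5161 CPM of Anxa5, 328 CPM of Slc26a5 and no Atp2a3 read. Library 67, at the maximum, held 53.9 CPM of Slc26a5 and 7.47 CPM of Atp2a3. The cell with the highest Anxa5 was therefore not among those with the highest Slc26a5.

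Slc26a5 codes for prestin, the membrane motor that lets outer hair cells change length. Anxa5 spans chromosome 3 from 36448923 to 36475894 and Slc26a5 chromosome 5 from 21810655 to 21865604, both on the minus strand of mm10. The 250 bases upstream of each RefSeq start are shown because these 2 genes varied together over the cells. They are read in the direction of transcription from the GRCm38.p6 table (chr3:36475888-36476137 and chr5:21865605-21865854). Capitals mark matches on either strand to the 6 motifs named below.
Anxa5: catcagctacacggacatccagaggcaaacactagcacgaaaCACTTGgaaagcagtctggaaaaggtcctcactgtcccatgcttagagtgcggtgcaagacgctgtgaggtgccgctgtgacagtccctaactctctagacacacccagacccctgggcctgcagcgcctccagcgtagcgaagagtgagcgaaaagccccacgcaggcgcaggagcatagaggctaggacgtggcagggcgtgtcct
Slc26a5: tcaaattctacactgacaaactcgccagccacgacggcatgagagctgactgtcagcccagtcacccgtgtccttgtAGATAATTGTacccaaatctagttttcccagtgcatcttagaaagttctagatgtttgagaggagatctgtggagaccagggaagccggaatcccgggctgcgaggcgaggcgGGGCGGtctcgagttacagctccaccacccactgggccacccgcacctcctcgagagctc

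Each motif was searched on both strands, beside the same search in 32851 RefSeq upstream windows of that length. The E-box, CANNTG, was in 66.2% of all windows and occurred 1 time in the Anxa5 window and not in that of Slc26a5. The GC box, GGGCGG, in 32.7% of all windows, occurred 1 time in the Slc26a5 window. A GATA site, searched as AGATAA and found in 9.99% of all windows, occurred 1 time there too. The SOX core, searched as ACAAT and found in 27.7% of all windows, was also in the Slc26a5 window, where it overlaps the previous match. The TATA box, searched as TATAAA and found in 12.37% of all windows, was in neither. The nuclear receptor core AGGTCA, found in 14.02% of all windows, was also in neither. None of the 6 motifs was thus in both windows. GC content was 58.8% for the Anxa5 window against a median of 52.4%, and both windows held 13 CpG dinucleotides. The table held 6 of the 8 members, and Anxa3 and Anxa6 are missing from it.

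Anxa5 and Slc26a5 ranked the cells alike. Over 73 cells the rank correlation was 0.67. Among the 8618 genes that averaged at least 10 CPM, Anxa5 was number 13 in likeness to Slc26a5, and Slc26a5 number 38 in likeness to Anxa5. Of these genes, 1.35% reached 0.5 or higher and 0.87% reached -0.5 or lower with Slc26a5, and 1.87% reached 0.5 or higher with Anxa5. All values come from the same libraries and share their depth and total. Anxa5 itself stood at -0.54 with the mitochondrial share of counts, 0.65 with the ribosomal protein share, 0.32 with the library total and -0.16 with genes counted per cell. With the library number, whose meaning the labels do not give, Anxa5 stood at 0.375 and Slc26a5 at 0.315. No correction for that number was made. After correction of the ranks for the mitochondrial share, Anxa5 and Slc26a5 stood at 0.55, and after correction for the ribosomal protein share at 0.41. Without the 26 cells that held a marker of another cell type it was 0.62.

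The relation was seen between clusters of cells and was weak inside them. Clusters were made without the annexins, the inner and outer hair cell genes fixed as lists, sex-linked and mitochondrial genes, and numbered 21, 26, 9 and 17 cells in clusters 1 to 4. They were left unnamed. In the order of the clusters, the median was 922, 2789, 811 and 547 CPM for Anxa5 and 44.4, 452, 28.4 and 0.16 CPM for Slc26a5. In cluster 2 the lowest Anxa5 level was 1776 CPM, and only 3 of the 47 cells of the other clusters were at or above it. Inside clusters 1, 2 and 4 the rank correlation of Anxa5 with Slc26a5 was 0.21, -0.35 and 0.24, and cluster 3 was too small for a value. Cluster 2 thus had the highest medians of both transcripts, and the sign of the relation differed inside it. The median mitochondrial share was 6.07%, 5.08%, 7.90% and 9.09% in clusters 1 to 4, and the median ribosomal protein share 1.82%, 2.28%, 1.66% and 1.63%. Their part in the relation of Anxa5 with Slc26a5 was examined only by the corrections above.

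**Figure D2:**
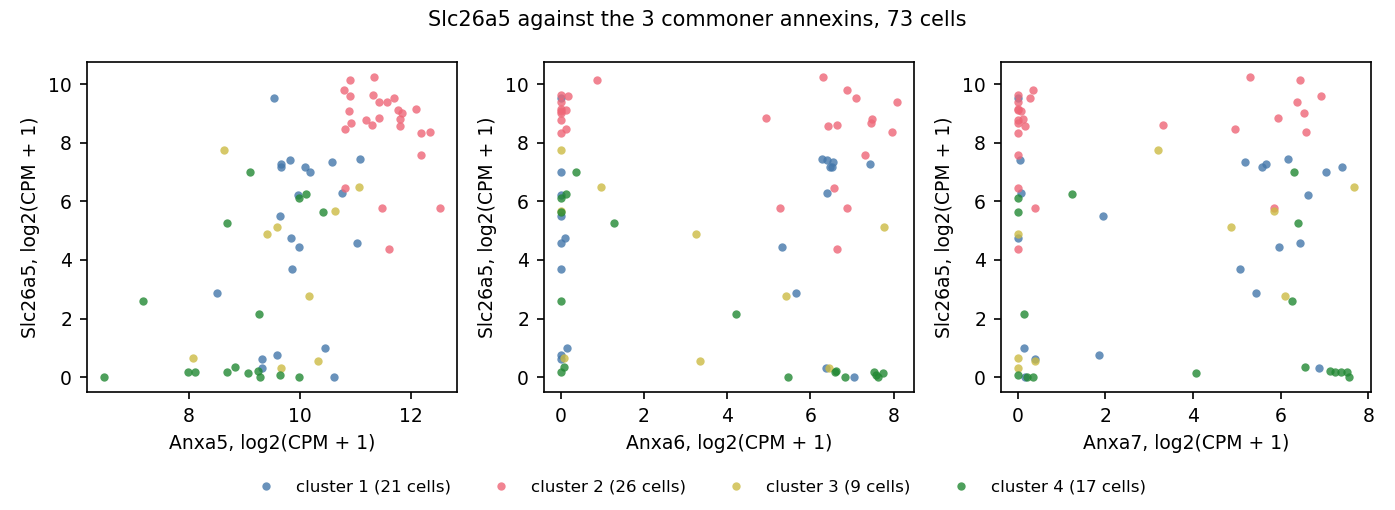
Slc26a5 against Anxa5, Anxa6 and Anxa7 in 73 cells, both axes as log2(CPM + 1), with points coloured by cluster. Cluster 2 sits at high Anxa5 and high Slc26a5, with no rise inside it, while Anxa6 and Anxa7 each show cells near 0 over the range of Slc26a5.

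The other annexins had weak values with both genes. Besides Anxa5, only Anxa2, Anxa6 and Anxa7 averaged 10 CPM, and 0 of these 3 reached 0.5 in size with Anxa5, against 2.82% of the 8618 genes, or with Slc26a5, against 2.22%. A count of 0 in 3 is near those shares and is no result about these members. With Anxa5, the rank correlation was 0.05 for Anxa6, -0.26 for Anxa7 and 0.17 for Anxa2. With Slc26a5, it was -0.13 for Anxa6, -0.17 for Anxa7 and -0.08 for Anxa2. The values of Anxa2 rest on few cells, since 50 cells had no count and are tied at 0. Its mean of 12.3 CPM includes 493 CPM in library 67. As Pearson values on log2(CPM + 1), Anxa2 stood at 0.31 with Anxa5 and 0.20 with Slc26a5, so its sign with Slc26a5 depends on the measure. Anxa1, Anxa4 and Anxa11 were between 0.04 and 0.06 with Anxa5, but most of their cells are tied at 0, and Anxa3 has no value because it was 0 everywhere. The 6 pairs among the 4 members with a mean of 10 CPM or more ranged from -0.26 to 0.18 (median 0.08). No pair of these members thus ranked the cells alike. Within cluster 4, Anxa7 stood at -0.82 with Anxa5 and Anxa6 at -0.72 with Slc26a5, over 17 cells. The same values were 0.17 and 0.22 in cluster 1 and -0.05 and -0.23 in cluster 2. Those of cluster 4 are named because they were the largest in size of many within clusters. The share of all genes that reach such sizes over 17 cells was not computed, so they are no result about these members.

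**Figure D3:**
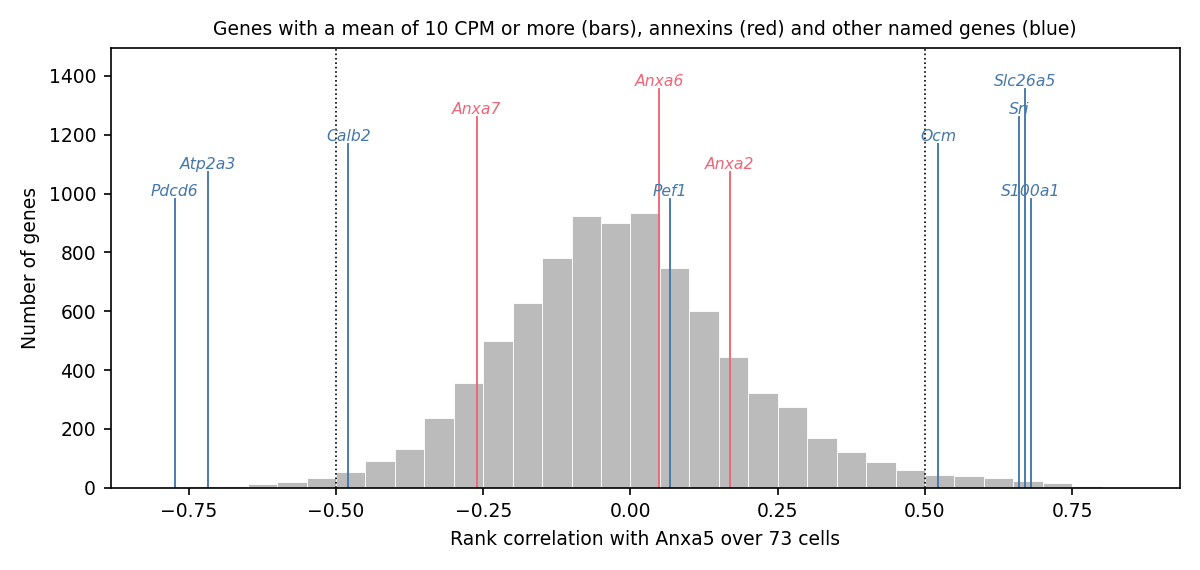
Number of genes (bars) by their rank correlation with Anxa5 over 73 cells, for 8618 genes averaging at least 10 CPM, with annexins in red, other named genes in blue and dotted lines at 0.5 and -0.5. Anxa2, Anxa6 and Anxa7 lie in the bulk of the genes, and S100a1, Sri and Slc26a5 lie far to the right and Pdcd6 far to the left.

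The genes whose pattern was most like that of Anxa5 came from several functions. Sox10, a transcription factor known from glia and the early otic epithelium, stood highest at 0.81 over 73 cells. Next came Calb1, a calcium buffer (0.80), Ecel1, a membrane endopeptidase-like protein (0.78), Prxl2a, a peroxiredoxin-like protein (0.77), and Socs2, a suppressor of cytokine signalling (0.76). Mgst3, a microsomal glutathione transferase, reached 0.76, Pole, a DNA polymerase subunit, 0.74, and the endocytic receptor gene Cubn 0.74. S100a13, an EF-hand gene, and App, the amyloid precursor, stood at 0.74. At the opposite end were Igfbp5, a secreted binder of insulin-like growth factors (-0.78), Pdcd6 (-0.77), Osbp2, an oxysterol-binding protein (-0.75), and Ripor3 (-0.74). Inside cluster 2 many of these values were near 0 or had the other sign, with Sox10 at 0.05, Calb1 and Ecel1 at -0.004, Pole at -0.04, S100a13 at -0.09, Igfbp5 at 0.35 and Ripor3 at 0.13. Mgst3 (0.19), Cubn (0.12), Pdcd6 (-0.15) and Osbp2 (-0.17) had weak values of unchanged sign. Prxl2a, Socs2 and App kept 0.36, 0.37 and 0.55 there. Inside clusters 1 and 4 the genes named here kept their sign, except Osbp2 in cluster 1 (0.036) and Socs2 in cluster 4 (-0.096). The values that kept it differed in size, from 0.027 for Prxl2a to -0.635 for Ripor3, both in cluster 4.

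Sox10 was either near 0 or clearly detected along the range of Anxa5. It was detected in all 26 cells of cluster 2 (11.1 to 276 CPM), in 1 cell of cluster 1 and in none of clusters 3 and 4. Sox10 is also a marker of glia, so levels of other glial markers are given beside it. Cnp was detected in 29 cells and stood at 0.05 with Anxa5. Mal was detected in 1 cell, and the myelin genes Mbp and Pmp22 in none. The sum of these 4 genes, without Sox10, ran from 0 to 222 CPM in cluster 2 (median 8.72 CPM) and from 0 to 192 CPM in the other clusters (median 0). The sum of supporting cell markers ran from 0 to 1309 CPM in cluster 2 (median 5.94) and from 0 to 181 CPM in the other clusters (median 0.14). For mesenchyme markers it ran from 0 to 538 CPM (median 24.6) against 0 to 99 CPM (median 0.25). The part of glial, supporting cell or mesenchyme RNA in the relation of Anxa5 with Sox10 was not tested beyond these levels.

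Anxa6 and Anxa7 were each detected in some cells and not in others. Anxa6, which has a doubled annexin core and binds membranes of the secretory pathway, lies on chromosome 11 from 54979108 to 55033445. Its level ran from 0 through a median of 29.7 CPM to 270 CPM in library 68, and it was detected in 38 cells (52.1%, exact 95% interval 40.04 to 63.9). Anxa7, or synexin, known for fusing chromaffin granules, lies on chromosome 14 from 20455260 to 20480133. It ran from 0 through 8.25 CPM to 204 CPM in library 63 and was detected in 35 cells (47.9%, interval 36.1 to 59.96). In cells where it was detected, the median level was 96.7 CPM for Anxa6 and 82.0 CPM for Anxa7.

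Both genes ranged from cells without reads through cells with few to cells above 100 CPM. Anxa6 had no count in 21 cells and was between 1 count and 10 CPM in 14, and Anxa7 had no count in 18 and was in that low range in 20. Genes whose mean lies within 1.5-fold of that of Anxa6 were detected in a median of 49 cells (quartiles 43 and 55, over 2279 genes), so Anxa6 was in fewer cells than most of them. For Anxa7 the like value was 41 (quartiles 35 and 47, over 2546 genes). Per kb, Anxa6 was above Anxa7 in 44 of 73 cells, so their order does not hold from cell to cell. Anxa5 per kb was above Anxa7 in all 73 cells and above Anxa6 in 72. Before scaling by length, library 8 held 195 CPM of Anxa6 and 188 CPM of Anxa7 against 87.3 CPM of Anxa5. The order of Anxa5 and Anxa7 in that cell thus depends on the length used.

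The cells with Anxa6 and those with Anxa7 overlapped in part. Both were detected in 20 cells, Anxa6 alone in 18, Anxa7 alone in 15 and neither in 20. Anxa6 was in 57.1% of the cells with Anxa7 and in 47.4% of those without, against 52.1% of all cells. Anxa6 was detected in 24 of the 51 cells with Slc26a5 (47.1%) and in 14 of the 22 without (63.6%). Anxa7 was in 24 of those 51 cells (47.1%) and in 11 of the 22. Such shares were not computed over other genes, so these splits are no result about Anxa6 and Anxa7. In clusters 1 to 4, Anxa6 was detected in 11, 15, 3 and 9 cells and Anxa7 in 12, 9, 4 and 10. The genes most like Anxa6 were Foxred1, an assembly factor of respiratory complex I (0.44), the mRNA export adaptor Alyref (0.43) and the vesicle fusion gene Vti1b (0.42). Those most like Anxa7 were Osbpl9, a lipid-binding protein (0.45), Id1, an inhibitor of basic helix-loop-helix factors (0.42), and Ccn1, a secreted matrix protein (0.41). These values are weak, and none is read as more than an order.

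Anxa2 was carried by a handful of cells. Its protein forms a tetramer with S100A10 beneath the plasma membrane, and its gene spans chromosome 9 from 69453620 to 69491795 on the plus strand. The median was 0 CPM, 50 cells had no count and 17 had a count below 10 CPM. The 6 cells with Anxa2 were library 67 (493 CPM), library 65 (153 CPM), library 71 (126 CPM), library 60 (78.6 CPM), library 73 (24.8 CPM) and library 62 (10.1 CPM). All 6 were also detected for Slc26a5, at 20.9 to 794 CPM, and all had Myo7a at 224 to 409 CPM. Over all 73 cells, Slc26a5 was detected in 51 and Myo7a in 73. The median of Myo7a over all cells was 381 CPM, and of the 6 cells only library 65 was above it. Anxa5 ran from 1009 to 5881 CPM in the 6 cells.

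Markers of other cochlear cells were higher in the same 6 cells than in most others. Gsn, the actin-severing protein gelsolin, was most like Anxa2 over all cells (0.61), and ran from 48.8 to 775 CPM in the 6 cells and from 0 to 207 CPM in the other 67. Lum, a collagen-binding proteoglycan of mesenchyme (0.46), and Tmsb4x, an actin-monomer binder (0.45), came next. Gjb6, a connexin of supporting cells, was detected in 5 of the 6 cells. The sum of 10 supporting cell markers ran from 51.7 to 1309 CPM in them (median 207) and from 0 to 282 CPM in the other 67 (median 0.14), and Prox1 among these markers was detected in no cell. The sum of 8 mesenchyme markers ran from 0.22 to 538 CPM (median 150) against 0 to 246 CPM (median 0.45), and Col1a2, Pou3f4 and Postn were detected in no cell. Of the 6 cells, 5 were among the 26 that held a rare marker of another cell type, and the part of such RNA in the Anxa2 reads was not tested. The library numbers of the 6 cells were 60 to 73, but the labels do not say what the numbers stand for.

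**Figure D4:**
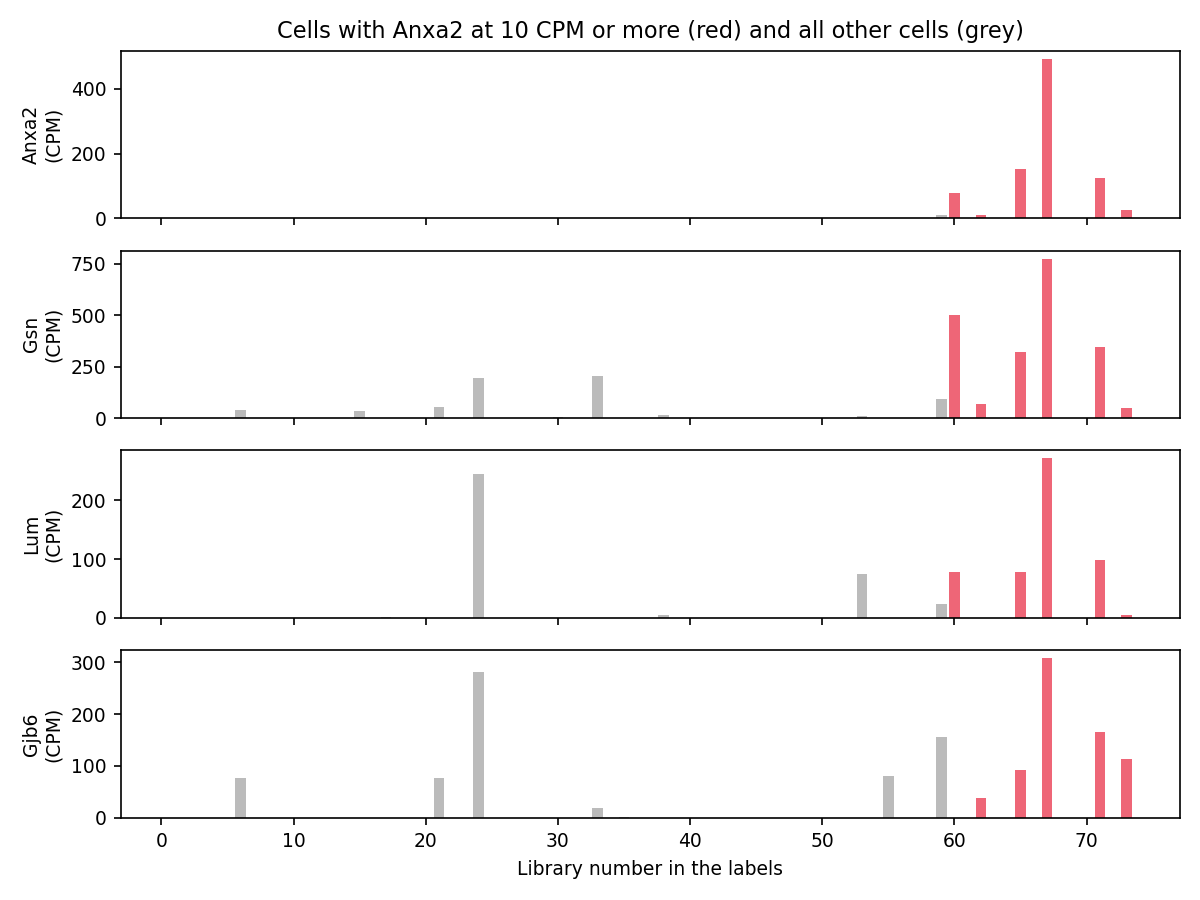
Level of Anxa2, Gsn, Lum and Gjb6 in CPM (vertical axes, each from 0) in each of the 73 libraries, ordered by the number in their labels, with the 6 cells at 10 CPM or more of Anxa2 in red. Library 67 holds the highest level of all 4 genes, and Lum and Gjb6 are also found in cells without Anxa2, such as library 24.

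The remaining members were near or below the limit of detection. Anxa4, which binds membranes and limits water flow across them, was detected in library 6 (78.6 CPM), library 53 (65.1 CPM) and library 55 (11.3 CPM), with a count in 8 further cells. Anxa11, an annexin of RNA granules and lysosomes, reached 13.3 CPM (171 counts) in library 18 and had 22 counts in library 24. Anxa11 shares 14.5% of its 50-base stretches with the annotated gene Gm2260, so its counts are uncertain. Anxa1, known for its anti-inflammatory action through formyl peptide receptors, had 4 counts in all, 2 each in libraries 40 and 44. Anxa3 had no count in any library. Detection in 0 of 73 cells still allows 4.11% of such cells by the rule of 3, or 4.93% by the exact upper limit. That rule divides 3 by the number of cells. Separately, a floor of 3 read counts in a library equals 0.272 CPM for the shallowest library and 0.081 CPM for the deepest.

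Of the 4 annexins outside the 8, Anxa8 and Anxa10 had no count in any cell. Anxa9 was detected in libraries 13 (59.8 CPM), 67 (59.6 CPM) and 16 (33.3 CPM), and Anxa13 in library 40 alone (34.01 CPM). No pair among the 12 annexins, Anxa13 with its non-coding annotated transcripts included, shared a stretch of 50 bases, so sequence of that length tells them apart. Anxa5, Anxa6 and Anxa7 shared none with any other annotated gene. Anxa1, Anxa2, Anxa4 and Anxa11 each overlap a non-coding gene on the opposite strand, and no source used here says that reads were counted by strand.

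Calcium-sensor partners of the annexins were mostly absent or strongly graded. Of 6 S100 genes whose proteins bind annexins, only S100a1 was detected in at least 37 cells. S100a1 had a lowest level of 95.2, a median of 1193 and a highest of 10910 CPM, and stood at 0.68 with Anxa5 and 0.59 with Slc26a5. It ran from 2457 to 10910 CPM in cluster 2 and from 95.2 to 2059 CPM in the other clusters, so these ranges did not overlap. The share of all genes with ranges so separated was not computed, so this is no result about S100a1. Inside clusters 1, 2 and 4 its rank correlation with Anxa5 was 0.31, 0.02 and -0.33. S100a1, Pdcd6 and Sox10 could enter the clustering, so their levels by cluster are a description.

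S100 genes that pair with single annexins were rare. S100a10, the partner of Anxa2, was detected in 5 cells, 3 of which also had Anxa2. S100a11, the partner of Anxa1, was detected in 9 cells with a maximum of 273 CPM in library 67. S100a6, which binds Anxa2 and Anxa11, was in 7 cells and S100b in 2, and S100a4 had no count. Of the 6 cells with Anxa2, 3 thus had S100a10, at 33.8 to 62.8 CPM, and the other 3 had none.

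The penta-EF-hand partners of Anxa7 and Anxa11 went in opposite directions along Anxa5. Sri, which encodes sorcin, a binder of Anxa7 that is also an outer hair cell gene, ran from 0.34 through a median of 654 to 1974 CPM and stood at 0.66 with Anxa5. Pdcd6, which encodes ALG-2, a calcium sensor that binds Anxa7 and Anxa11 and recruits membrane-sealing machinery, ran from 66.1 through 791 to 2072 CPM and stood at -0.77. Pef1, which pairs with ALG-2, was detected in 21 cells and stood at 0.07. In clusters 1 to 4, Pdcd6 had medians of 926, 415, 1029 and 1156 CPM and Sri 654, 1165, 455 and 160 CPM. Pdcd6 was thus lowest, and Sri highest, in the cluster with the most Anxa5.

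Pdcd6 and Sri had opposite signs inside clusters 1 and 4 and the same sign inside cluster 2. In clusters 1, 2 and 4 Pdcd6 stood with Anxa5 at -0.45, -0.15 and -0.53, and Sri at 0.33, -0.18 and 0.37. With ranks corrected for the ribosomal protein share, Pdcd6 was at -0.57, Sri at 0.46 and S100a1 at 0.42. Corrected for the mitochondrial share they were at -0.68, 0.49 and 0.55. The median of the 3 penta-EF-hand genes with Anxa5 was 0.07, against -0.02 over the 8618 genes, and hides both directions.

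**Figure D5:**
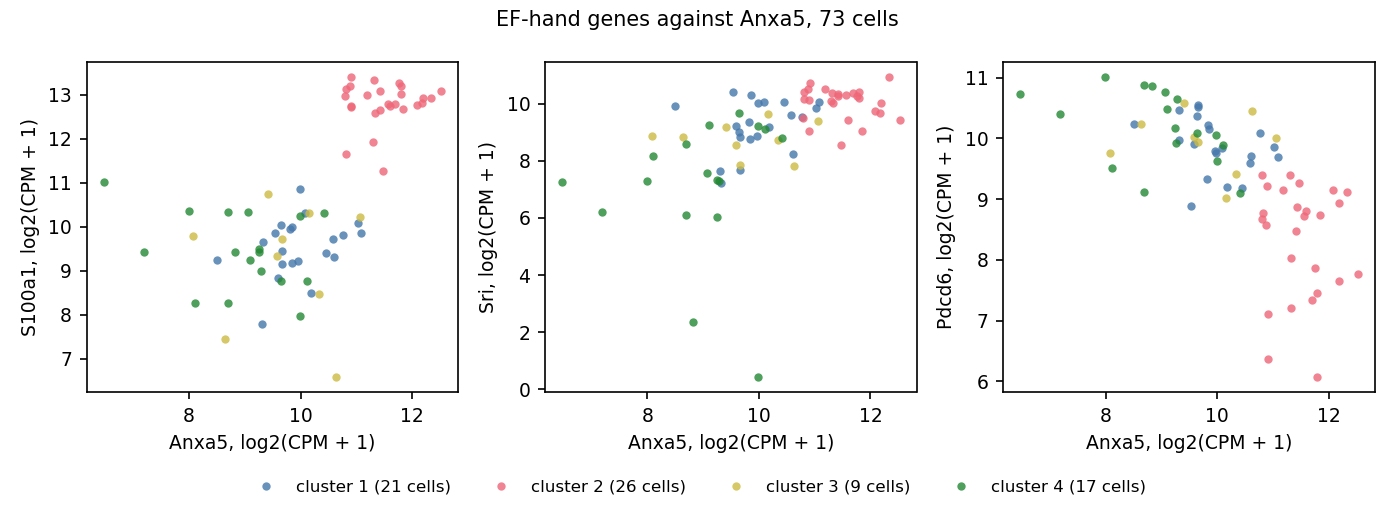
S100a1, Sri and Pdcd6 (vertical axes) against Anxa5 (horizontal axes) in 73 cells, all as log2(CPM + 1), with points coloured by cluster. S100a1 forms separate levels in cluster 2 and in the other clusters, Sri is lowest in some cells of cluster 4, and the lowest levels of Pdcd6 lie in cluster 2.

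Genes that act with annexins in membrane repair were in part detected in most cells. Of 12 such genes, 6 were detected in at least 37 cells, all of them of the ESCRT machinery that buds and seals membranes. Chmp2a was in all 73 cells (median 292 CPM), Tsg101 in 68 (150 CPM), Chmp4b in 63, Vps4b in 52, Vps4a in 49 and Pdcd6ip, which encodes the ALG-2 partner ALIX, in 45. Of 7 such genes compared with Anxa5, 0 reached 0.5 in size, against 2.82% of all genes compared, so the count is near that share. Their values ran from -0.12 for Chmp2a to 0.18 for Tsg101 and a median of -0.04. The ferlin gene Dysf was detected in 2 cells, Myof in 0 and the muscle repair gene Trim72 in 4. The calpain genes Capn2 and Capns1 were in 20 and 14 cells and Capn1 in 0.

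A short list of genes named as scramblases was detected in few cells. Scramblases are known for exposing phosphatidylserine, the lipid that annexin A5 binds. Whether the product of each listed gene exposes this lipid was not examined. Other genes that may expose it were not examined as such. Of 4 scramblase genes, Plscr1 was detected in 11 cells, Plscr3 in 4, Xkr8 in 2 and Ano6 in 0, and none had a mean of 10 CPM. Fpr1 and Fpr2, the receptors of Anxa1, were each detected in 3 cells. No correlation was read from genes at these levels.

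Hair cell genes took sides with respect to Anxa5, as the value for Slc26a5 already implies. Of 8 outer hair cell genes compared, 3 reached 0.5 or higher, Slc26a5, Sri and Ocm (0.52), and 7 were positive, with a median of 0.43 against -0.02 over all genes compared, of which 1.87% reached 0.5 or higher. Car7 was the exception (-0.25). Of 10 inner hair cell genes, 9 were negative with a median of -0.47, and Atp2a3 (-0.72), Dnajc5b (-0.58) and Slc7a14 (-0.58) reached -0.5, against 0.951% of the 8618 genes. Slc17a8 (-0.49), Calb2 (-0.48), Gata3 (-0.47) and Otof (-0.41) did not. Fgf8, whose Flpo allele marked the cells, stood at 0.55. With ranks corrected for the ribosomal protein share, none of the 7 genes past 0.5 in size stayed there, with Ocm at 0.28, Fgf8 at 0.27, Atp2a3 at -0.49, Dnajc5b at -0.42 and Slc7a14 at -0.39. Inside cluster 2, Ocm stood at -0.28 and Fgf8 at -0.55, against the sign over all cells. Of the outer hair cell genes compared, only Mlf1 (0.54) was positive there. Of the inner hair cell genes, only Tbx2 (0.12) and Shtn1 (0.30) were positive there. Gata3 kept its sign inside clusters 1, 2 and 4, at -0.43, -0.51 and -0.52. So did Slc17a8 (-0.41, -0.14 and -0.19), Dnajc5b (-0.13, -0.23 and -0.71) and Mlf1 (0.44, 0.54 and 0.15). Since Anxa5 and Slc26a5 vary together, these values are not independent of the relation with Slc26a5.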

How the data were processed

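Full-length cDNA of single cells was amplified with a Smart-Seq HT kit, per the labels' protocols. The deposited table gives counts as whole numbers for each gene in 73 cells. Per the submitters' processing notes the tools were HISAT2 2.2.1, StringTie 2.2.1 and featureCounts 2.0.1 on mm10, and their settings are not given in the sources used here. Counts include PCR copies, because the kit has no molecular identifiers. The intervals on shares of cells cover counting over cells only. They treat the cells as independent, although no animal is named. The reporter row WPRE (0.0161% of counts) was left out of totals.

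CPM are counts over the library total. Correlations are Spearman values over cells for genes averaging at least 10 CPM, called at 0.5 in size. The cells are 1 sample, so no p-value was made. Shares carry exact Clopper-Pearson 95% intervals. Positions and the summed length of all annotated exons come from GENCODE vM21, and promoters from RefSeq (GRCm38.p6). Clusters used 2000 variable genes, 15 components, 10 neighbours and Leiden resolution 1. Alternatives were other scalings, detection thresholds, log scales, corrected ranks, single clusters and fewer cells. The correlation step was tested on simulated data. The text names the members, the fixed lists, the 10 genes most like Anxa5, the 5 most opposed to it and the 3 highest for Anxa2, Anxa6 and Anxa7, skipping unnamed genes. Some genes that this rule or the marker lists name are not reported here. Members and lists were chosen with earlier results of these data known. Clusters came from scanpy 1.11.5 with python-igraph 0.11.9, size factors for an alternative from scran 1.30.0 in R 4.3.3, and correlations from scipy 1.17.1 in Python 3.11.15.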

Additional observations from a re-analysis of the deposited data

How the results depend on the processing

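The rank correlation of Anxa5 with Slc26a5 (0.67) fell below 0.5 when corrected for the ribosomal protein share (0.414) and inside the clusters, at 0.21 in cluster 1, -0.354 in cluster 2 and 0.238 in cluster 4. It stayed at 0.5 or higher with scran size factors, totals without mitochondrial genes, both log2 scales, the corrections for mitochondrial share and for depth, and without the cells holding markers of other cell types or, chosen after seeing the data, without libraries 5 and 67. Genes at 0.5 or higher with Anxa5 numbered 161, but 76 corrected for the mitochondrial share and 30 corrected for the ribosomal protein share. Genes at -0.5 or lower numbered 82, but 38 and 13 under the same corrections. The cause was not tested. Corrected for the ribosomal protein share, 0 of the 8 members reached 0.5 with Slc26a5 in place of 1. Inside cluster 4, 1 member (Anxa7) reached 0.5 in size with Anxa5 in place of 0. The share of all genes that do so inside that small cluster was not computed, so this count is no result about Anxa7. Members detected in most cells numbered 2 at 10 CPM and 1 at 50 CPM. Members with a median of 10 CPM or more numbered 2, and 1 without the cells holding markers of other cell types. With 1 count as the threshold, Anxa2 was in 31.5% of cells, Anxa4 in 15.1%, Anxa6 in 71.2% and Anxa7 in 75.3%. At 50 CPM, Anxa7 was in 35.6%. No paired analysis was possible because the cells form 1 group. Cluster 3, with 9 cells, was too small for a correlation.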
